A study of Homo sapiens with 9 samples.

Results

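The RNA levels of 47 genes of the lysosome and of autophagy were followed in HepG2 cells, an established line from a human liver tumour, after exposure to the organophosphate flame retardant and plasticiser TBOEP. The genes were taken by name from a list of 47 feature names, all of which were found among the 57773 features counted and all of which passed the filter on low counts, among 12901 genes tested. The list covers the proton pump, membrane proteins and hydrolases of the lysosome, 2 of the transcription factors that act on their genes, and the machinery that builds and loads autophagosomes. The control cells received 0.1% DMSO (the solvent) with 0 µM TBOEP, the low group 2.5 µM TBOEP and the high group 125 µM TBOEP, each for 72 h. All 3 groups thus carried the same solvent, and each had 3 libraries, which the protocols describe as separate seedings of the same line. Polyadenylated RNA was sequenced, and the deposited tables give reads per gene. Total gene reads ran from 2480964 to 11885877 per library, so that 3 reads stood for 0.252 to 1.21 CPM (gene counts divided by library size).

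Lysosomes are acidic organelles in which hydrolases break down proteins, lipids and sugar chains. Their acidity comes from a proton pump, the V-ATPase, made of a V0 sector in the membrane that carries the protons and a V1 sector on the outer face that splits ATP. In autophagy a membrane forms around cytoplasm, is decorated with small proteins of the ATG8 family and fuses with the lysosome; TFEB and TFE3 are transcription factors known to switch on genes of both systems, and hepatocytes are known for a high rate of autophagy.

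Values below are CPM scaled by the TMM method, in the order of replicates 1, 2 and 3, and fold changes and adjusted p-values come from edgeR's quasi-likelihood test with Benjamini-Hochberg adjustment over the 12901 genes. At 125 µM against control, 40.2% of all tested genes passed the threshold of 0.05, 2618 higher and 2562 lower; at 2.5 µM against control it was 11.0%, 776 higher and 649 lower. On the deposited RPKM values (exon reads scaled to exon length and library size), tested with limma as log2(RPKM + 0.5), the split leaned to higher calls, with 2811 higher and 1413 lower at 125 µM and 171 higher and 45 lower at 2.5 µM. The 8 hepatocyte and HepG2 markers checked were all detected, with a summed level of 66746 ± 10471 CPM (mean ± SD, n = 3) in the controls, 51260.5 ± 5362 CPM at 2.5 µM and 34802 ± 3439.5 CPM at 125 µM. ALB, which made up 35789.6 CPM of the control sum, fell at 125 µM, as did AFP, APOB, FGB and SERPINA1, while APOA1, TTR and HNF4A did not pass (log2 fold changes -0.06, 0.18 and 0.10). At 2.5 µM AFP and APOB fell and TTR rose (log2 fold change 0.47, adjusted p = 0.00825), and the part of these in the results below was not tested. In bulk libraries such as these, fewer cells of a type and less RNA per cell cannot be told apart. Of 8 macrophage and blood cell markers 1 was high enough to test, their summed level lay between 1.84 and 3.96 CPM in the 9 libraries, and PTPRC, MARCO and TYROBP were at 0 reads; of 7 fibroblast and endothelial markers 1 was tested, the sum lay between 1.19 and 3.67 CPM, and COL1A2, DCN and LUM were at 0 reads. Reads in introns made up 6.87 ± 0.628% in the controls, 6.00 ± 1.52% at 2.5 µM and 5.23 ± 0.298% at 125 µM of gene reads (mean ± SD, n = 3).

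In control cells the 47 genes spanned a wide range of levels. On the RPKM scale, which allows genes of different length to be compared, PSAP (precursor of the saposins, which help hydrolases reach lipids) had the highest control mean at 217 ± 16.1 RPKM (mean ± SD, n = 3), followed by CTSB (the cysteine protease cathepsin B) at 137 ± 15.0 RPKM. The next were ATP6V1G1, a subunit of the pump's outer sector, at 54.2 ± 5.28 RPKM and GRN, which encodes progranulin, at 52.7 ± 5.61 RPKM. LAMP2 and LAMP1, the heavily glycosylated proteins that line the lysosomal membrane, stood at 51.1 ± 5.28 and 46.0 ± 2.23 RPKM. At the other end were MCOLN1, a calcium channel of the lysosome, at 1.07 ± 0.0890 RPKM, ATG7 (the E1-like enzyme of autophagy) at 0.759 ± 0.0930 RPKM and CTSZ (cathepsin Z) at 0.596 ± 0.309 RPKM. The median of the 47 control means was 11.6 RPKM, 15 genes were above 20 RPKM and 10 were below 5 RPKM. In this order 40 of the 46 pairs of neighbours overlapped between their control libraries, so that most neighbouring ranks did not differ beyond the spread.

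**Figure D1:**
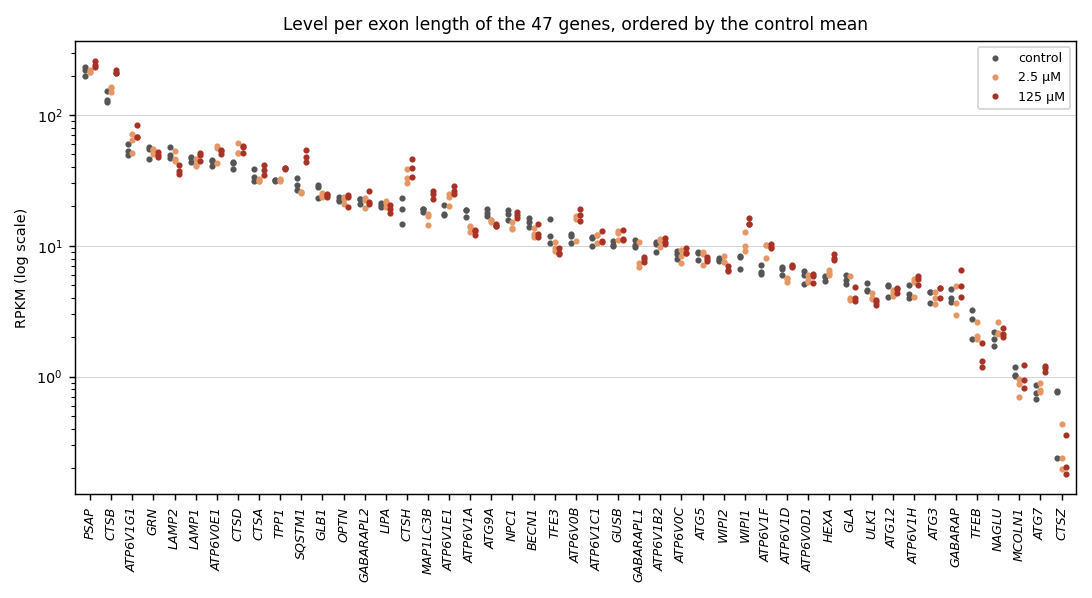
Level of each of the 47 genes in RPKM (log scale) in the 9 libraries, with genes ordered along the axis by their control mean; each point is 1 library, coloured by TBOEP concentration. PSAP and CTSB lead and CTSZ stands lowest, and the points of neighbouring genes mostly overlap.

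Together the 47 genes held 0.547 ± 0.00531% in the controls, 0.557 ± 0.00607% at 2.5 µM and 0.642 ± 0.0118% at 125 µM of all gene reads (mean ± SD, n = 3). Much of the higher share at 125 µM lay in CTSB: without it the shares were 0.443 ± 0.00876%, 0.436 ± 0.0104% and 0.481 ± 0.0125%. The 8 proteases and their partners held 0.257 ± 0.00565% in the controls, 0.283 ± 0.00774% at 2.5 µM and 0.343 ± 0.00877% at 125 µM, while the 5 genes that start autophagosome formation held 0.0381 ± 0.000285% in the controls, 0.0349 ± 0.000432% at 2.5 µM and 0.0338 ± 0.00132% at 125 µM. The protease share was thus higher and the initiation share lower in the 125 µM libraries than in the controls.

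The comparison of 125 µM with control asked which of these genes respond to the high concentration. Of the 47 genes 12 were higher, 10 were lower and 25 did not pass, a called share of 46.8% beside 40.2% of all tested genes (20.3% higher and 19.9% lower), so the share is near the background. The counts by role below cover 2 to 8 genes each and are to be read beside these shares. Their median log2 fold change was 0.03, beside 0.00356 for all tested genes, and their range was -1.05 to 1.04. Most changes were under 2-fold: 2 of the 22 called genes changed at least 2-fold and 5 at least 1.5-fold, and the median size among the 22 was 0.48 on the log2 scale against 0.65 for all called genes. On exon reads alone, which leave CTSZ untested, 12 were higher and 12 lower, beside 41.4% called of the 11589 genes tested there (2435 higher and 2360 lower). On the RPKM scale with limma 12 were higher and 7 lower. Without 125 µM library 3 the counts were 7 higher and 6 lower, and without 125 µM library 2 the lower count was 6. All tested genes then gave 2340 higher and 2271 lower without library 3, and 1826 and 1731 without library 2. In all 20 other ways of processing that were tried, 12 of the 22 calls passed: ATP6V1A, ATP6V1E1, LAMP2, CTSB, CTSH, HEXA, TFEB, TFE3, ULK1, ATG9A, WIPI1 and SQSTM1.

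**Figure D2:**
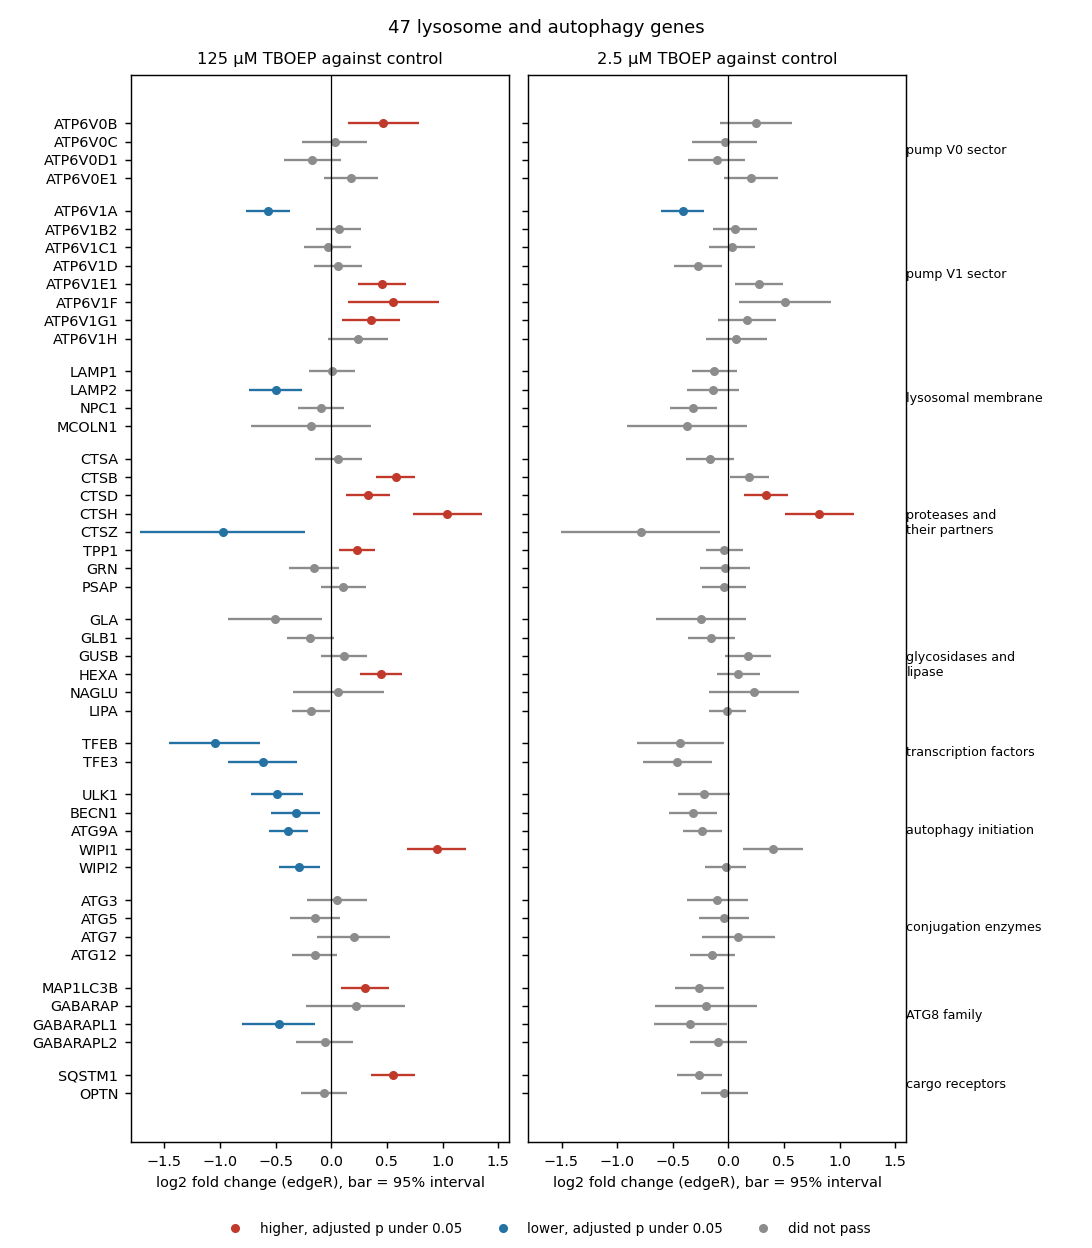
Log2 fold change (horizontal axis) of each of the 47 genes, grouped by role, at 125 µM (left) and 2.5 µM (right) TBOEP against control, with points for the edgeR estimate and bars for its 95% interval; red marks higher, blue lower and grey not passed. At 125 µM both directions occur within the pump and the ATG8 family, both transcription factors are lower, and 4 of the 5 initiation genes are lower while WIPI1 is higher.

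The proton pump showed changes in both directions. In the V0 sector 1 of 4 genes rose. ATP6V0B, which encodes a proton-carrying subunit of the membrane ring (chr1:44440159-44443967, hg19, as are all positions of genes here), was at 47.9, 41.9 and 40.0 CPM in the control libraries. ATP6V0B was measured at 38.6, 59.8 and 60.6 CPM at 2.5 µM and at 61.2, 55.0 and 67.5 CPM at 125 µM. All 3 libraries at 125 µM were above the controls, while those at 2.5 µM lay on both sides, and the rise was 1.38-fold (log2 fold change 0.47 ± 0.15 SE, adjusted p = 0.0222). ATP6V0C, ATP6V0D1 and ATP6V0E1 had log2 fold changes from -0.17 to 0.17 and did not pass. In the V1 sector 3 of 8 genes rose and 1 fell. ATP6V1A, the catalytic subunit that binds ATP (chr3:113465866-113530903), was at 107, 97.5 and 89.0 CPM in the control libraries. ATP6V1A was at 73.8, 78.0 and 67.9 CPM at 2.5 µM and at 69.2, 62.7 and 67.2 CPM at 125 µM. Every treated library was below every control library, at both concentrations, and at 125 µM the level was 1.48-fold lower (log2 fold change -0.57 ± 0.09 SE, adjusted p = 0.000283). ATP6V1E1, part of the stalk that holds the sector in place, was at 60.9, 67.5 and 60.3 CPM in the control libraries. ATP6V1E1 stood at 66.7, 81.0 and 83.2 CPM at 2.5 µM and at 81.6, 86.0 and 93.2 CPM at 125 µM. It rose 1.37-fold at 125 µM (log2 fold change 0.46 ± 0.10 SE, adjusted p = 0.00239), with no overlap with the controls. ATP6V1G1, its partner in the stalk, was at 71.2, 78.8 and 73.9 CPM in the control libraries. ATP6V1G1 was measured at 68.2, 89.3 and 97.4 CPM at 2.5 µM and at 90.5, 89.6 and 109 CPM at 125 µM, again with the 125 µM libraries all above the controls (log2 fold change 0.36 ± 0.12 SE, adjusted p = 0.0292). ATP6V1F, a small subunit of the V1 sector, was at 5.14, 4.95 and 5.90 CPM in the control libraries. ATP6V1F was at 6.31, 8.46 and 8.08 CPM at 2.5 µM and at 7.77, 7.64 and 8.08 CPM at 125 µM, so its treated libraries all exceeded its controls (log2 fold change 0.56 ± 0.19 SE, adjusted p = 0.0316). ATP6V1B2, ATP6V1C1, ATP6V1D and ATP6V1H had log2 fold changes from -0.03 to 0.24 and did not pass. The call of ATP6V0B was lost without control library 3 or 125 µM library 1 or 3 (adjusted p from 0.0547 to 0.0716), that of ATP6V1G1 without control library 1 or 3 or 125 µM library 3 (adjusted p from 0.0683 to 0.107) and with limma on RPKM (adjusted p from 0.0516 to 0.0534) and that of ATP6V1F without control library 1 or 2 or 125 µM library 1, 2 or 3 (adjusted p from 0.0560 to 0.113) and with DESeq2 or with no filter (adjusted p from 0.0606 to 0.123).

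Among the 4 genes of the lysosomal membrane, LAMP2 fell and the others did not pass. LAMP2, of which 1 isoform is the receptor of chaperone-mediated autophagy (chrX:119561682-119603220), was at 365, 283 and 309 CPM in the control libraries. LAMP2 stood at 266, 332 and 272 CPM at 2.5 µM and at 212, 223 and 246 CPM at 125 µM. The 125 µM libraries were all below both the control and the 2.5 µM libraries, and the level was 1.41-fold lower than in controls (log2 fold change -0.50 ± 0.11 SE, adjusted p = 0.00269). LAMP1 was at 294, 249 and 285 CPM in the control libraries. LAMP1 was measured at 238, 280.0 and 239.9 CPM at 2.5 µM and at 286, 255 and 294 CPM at 125 µM, and these groups overlapped, with a log2 fold change of 0.01 at 125 µM (95% interval -0.20 to 0.21). NPC1, which moves cholesterol out of the lysosome, had a log2 fold change of -0.09 (adjusted p = 0.486) and MCOLN1 one of -0.18 (adjusted p = 0.603).

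The proteases and their partners held the largest rise among the 47 genes at 125 µM, that of CTSH. Of the 8 genes 4 rose and 1 fell, beside 20.3% and 19.9% of all tested genes. CTSH, a cysteine protease that trims proteins from their amino end (chr15:79213400-79241916), was at 94.4, 139 and 121 CPM in the control libraries. CTSH was at 199.7, 188 and 236 CPM at 2.5 µM and at 238, 283 and 197 CPM at 125 µM. Every treated library was above every control library, and the group means were 118 ± 22.3 CPM, 208 ± 25.2 CPM and 239.5 ± 43.0 CPM. The level at 125 µM was 2.06-fold higher than in controls (log2 fold change 1.04 ± 0.15 SE, adjusted p = 9.04e-05). CTSB, cathepsin B (chr8:11700033-11726957), was at 1008, 1141 and 1029 CPM in the control libraries. CTSB stood at 1222, 1176 and 1221 CPM at 2.5 µM and at 1550.5, 1646 and 1550.1 CPM at 125 µM. The 3 groups were ordered by concentration with no overlap, and the rise at 125 µM was 1.49-fold (log2 fold change 0.58 ± 0.08 SE, adjusted p = 0.000106). CTSD, the aspartic protease cathepsin D (chr11:1773982-1785222), was at 127, 128 and 142 CPM in the control libraries. CTSD was measured at 153, 163 and 189 CPM at 2.5 µM and at 154, 174 and 170.0 CPM at 125 µM. Its treated libraries at both concentrations exceeded all controls (log2 fold change 0.33 ± 0.09 SE, adjusted p = 0.0121 at 125 µM). TPP1, which removes tripeptides from protein ends, was at 171, 153 and 165 CPM in the control libraries. TPP1 was at 155, 161 and 162 CPM at 2.5 µM and at 190.0, 193 and 190.1 CPM at 125 µM. Its 125 µM libraries lay close together and above all others (log2 fold change 0.23 ± 0.08 SE, adjusted p = 0.0277). CTSZ, a carboxypeptidase and the lowest of the 47 genes by RPKM, was at 3.35, 2.77 and 1.80 CPM in the control libraries. CTSZ stood at 1.53, 1.95 and 0.808 CPM at 2.5 µM and at 1.33, 1.58 and 1.10 CPM at 125 µM. It fell (log2 fold change -0.97 ± 0.35 SE, adjusted p = 0.0353), 50.9% of its control reads lay in introns, and it was not tested on exon reads. CTSA (which protects other hydrolases), GRN and PSAP had log2 fold changes from -0.16 to 0.11 and did not pass. The call of CTSD was lost without 125 µM library 2 (adjusted p = 0.0587), that of TPP1 without control library 2 or 3 or 125 µM library 1, 2 or 3 (adjusted p from 0.0511 to 0.0860) and with DESeq2, with no filter or on exon reads (adjusted p from 0.0528 to 0.0762) and that of CTSZ without control library 1 or 2 or 125 µM library 1, 2 or 3 (adjusted p from 0.0626 to 0.234) and with DESeq2, with no filter or with limma on RPKM (adjusted p from 0.0594 to 0.145).

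Of the 6 genes of the glycosidases and the acid lipase 1 rose. HEXA, a subunit of the enzyme that takes apart gangliosides (chr15:72635775-72668817), was at 61.5, 56.0 and 55.2 CPM in the control libraries. HEXA was measured at 57.3, 63.4 and 65.0 CPM at 2.5 µM and at 75.4, 78.6 and 83.7 CPM at 125 µM. The 125 µM libraries exceeded all 6 others, 1.36-fold higher than controls (log2 fold change 0.45 ± 0.09 SE, adjusted p = 0.00125). GLA, the galactosidase missing in Fabry disease, was at 12.3, 12.3 and 11.0 CPM in the control libraries. GLA was at 8.13, 12.8 and 8.08 CPM at 2.5 µM and at 8.25, 7.88 and 9.91 CPM at 125 µM. Its 125 µM libraries were all below the controls, but it did not pass (log2 fold change -0.51 ± 0.20 SE, adjusted p = 0.0527); on exon reads its adjusted p was 0.0235. LIPA, the acid lipase that frees cholesterol from its esters, was at 107, 108 and 109.5 CPM in the control libraries. LIPA stood at 109, 106 and 109 CPM at 2.5 µM and at 89.7, 95.9 and 102 CPM at 125 µM. It too lay below the controls in every 125 µM library without passing (log2 fold change -0.18 ± 0.08 SE, adjusted p = 0.0823), and had an adjusted p of 0.0223 on exon reads. GLB1, a galactosidase, had a log2 fold change of -0.19 with an adjusted p of 0.146 (0.0477 on exon reads). GUSB, a glucuronidase, and NAGLU, a glucosaminidase, did not pass, with log2 fold changes of 0.11 and 0.06. GUSB has pseudogenes that are counted separately, 4 of which were also tested. Of the reads counted for GUSB 100% were unique gene reads, and whether other reads of GUSB went to the pseudogenes was not tested.

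Both transcription factors fell at 125 µM, where 19.9% of all tested genes fell. TFEB, known as a master regulator of lysosomal genes (chr6:41651716-41703997), was at 22.4, 14.2 and 19.0 CPM in the control libraries. TFEB was measured at 14.1, 13.5 and 14.9 CPM at 2.5 µM and at 11.4, 7.97 and 7.34 CPM at 125 µM. The 125 µM libraries were below all 6 others, and the group means were 18.6 ± 4.11 CPM, 14.2 ± 0.740 CPM and 8.91 ± 2.19 CPM. The level at 125 µM was 2.06-fold lower than in controls (log2 fold change -1.05 ± 0.19 SE, adjusted p = 0.000679). TFE3, its relative (chrX:48886242-48901012), was at 80.2, 50.1 and 58.2 CPM in the control libraries. TFE3 was at 44.2, 51.5 and 41.6 CPM at 2.5 µM and at 44.1, 40.3 and 40.0 CPM at 125 µM. Control library 1 was the highest, the 125 µM libraries were all below the controls (log2 fold change -0.62 ± 0.15 SE, adjusted p = 0.00389), and the 2.5 µM libraries overlapped with both.

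TFEB and TFE3 are known to bind an E-box, CACGTG, near the start of lysosomal genes, so the promoter windows of the 47 genes were read from RefSeq (GRCh38.p14; 250 bases before to 50 bases after the start). Windows were matched for 37 of the 47 genes, leaving ATP6V0E1, ATP6V1A, ATP6V1B2, ATP6V1C1, ATP6V1H, LAMP2, CTSB, PSAP, HEXA and NAGLU unmatched. Some genes have several windows, 48 in all for the 37. CACGTG, which reads the same on both strands, was present in 8 of the 48 windows, or 16.7%, beside 7.23% of the 34943 windows of this length in the table. Counted by gene, 8 of the 37 genes (21.6%) had it in some window, beside 8.77% of the 27305 genes in the table. The longer form TCACGTGA, which contains CACGTG and also reads the same on both strands, was in 6 of the 48 windows (12.5%) beside 0.979% of all windows. The 47 genes were chosen for the lysosome and autophagy, so the shares of both forms describe the list, not a response to TBOEP. The windows set beside them include genes that were not tested here. The motif TGATGNAA, searched on both strands as a site of ATF4 and C/EBP proteins, was in 0 of the 48 beside 3.62% of all windows. CACGTG was found in 3 of the 10 matched genes that rose at 125 µM, in 0 of the 8 that fell and in 5 of the 19 that did not pass (ATG3, ATP6V0D1, CTSA, LAMP1 and MCOLN1). The longer TCACGTGA was in 1 of the 10 that rose, in 0 of the 8 that fell and in 5 of the 19 that did not pass. The promoters of the 3 called genes with CACGTG are shown. The call of each of these 3 was lost when certain single libraries were left out, as given above. A link between the motif and the change in RNA was not tested. Capitals mark CACGTG.
ATP6V0B promoter (chr1:43974710-43975009, plus strand): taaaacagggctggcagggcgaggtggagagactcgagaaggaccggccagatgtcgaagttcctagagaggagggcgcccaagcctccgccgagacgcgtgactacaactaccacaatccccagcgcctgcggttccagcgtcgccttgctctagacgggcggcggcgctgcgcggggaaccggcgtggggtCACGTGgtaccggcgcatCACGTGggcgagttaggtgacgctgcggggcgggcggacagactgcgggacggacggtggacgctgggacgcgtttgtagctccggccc
ATP6V1G1 promoter (chr9:114587519-114587818, plus strand): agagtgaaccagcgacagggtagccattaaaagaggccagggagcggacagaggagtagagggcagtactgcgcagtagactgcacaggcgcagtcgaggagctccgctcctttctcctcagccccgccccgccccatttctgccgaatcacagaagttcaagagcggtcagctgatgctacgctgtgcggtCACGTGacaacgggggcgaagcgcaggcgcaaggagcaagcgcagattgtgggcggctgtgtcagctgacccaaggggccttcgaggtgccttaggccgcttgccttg
CTSD promoter (chr11:1763878-1764177, minus strand): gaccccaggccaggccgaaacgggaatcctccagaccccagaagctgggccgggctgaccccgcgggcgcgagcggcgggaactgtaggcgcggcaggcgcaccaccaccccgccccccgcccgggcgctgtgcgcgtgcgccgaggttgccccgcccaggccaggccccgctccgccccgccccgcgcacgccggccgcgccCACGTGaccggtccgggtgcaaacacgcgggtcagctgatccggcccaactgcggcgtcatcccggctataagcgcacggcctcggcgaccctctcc
ATP6V0B has CACGTG at 57 and 39 bases before the start, ATP6V1G1 at 58 bases before it (within TCACGTGA) and CTSD at 47 bases before it. LAMP1, whose RNA did not pass, has 6 matches, and MCOLN1 has 2. A match is a description of the letters and not a measured site of binding.

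All 5 genes of autophagy initiation passed at 125 µM, 4 of them lower, beside 40.2% called and 19.9% lower among all tested genes. ULK1, the kinase that starts the process (chr12:132379196-132407712), was at 47.3, 37.4 and 40.8 CPM in the control libraries. ULK1 stood at 36.0, 37.6 and 34.3 CPM at 2.5 µM and at 28.3, 32.0 and 29.4 CPM at 125 µM, with the 125 µM libraries below all others (log2 fold change -0.49 ± 0.11 SE, adjusted p = 0.00284). ATG9A, a membrane protein whose vesicles seed the autophagosome, was at 159, 142 and 165 CPM in the control libraries. ATG9A was measured at 128, 136 and 132 CPM at 2.5 µM and at 122, 118 and 116 CPM at 125 µM. Its treated libraries were all below the controls, and those at 125 µM were the lowest (log2 fold change -0.39 ± 0.08 SE, adjusted p = 0.00197). BECN1, a subunit of the lipid kinase complex that marks the forming membrane, was at 90.0, 91.0 and 80.8 CPM in the control libraries. BECN1 was at 75.2, 70.2 and 63.0 CPM at 2.5 µM and at 79.1, 66.7 and 62.4 CPM at 125 µM, again below the controls in every treated library (log2 fold change -0.32 ± 0.10 SE, adjusted p = 0.0210). WIPI2, which reads the mark left by that kinase, was at 78.1, 74.2 and 79.8 CPM in the control libraries. WIPI2 stood at 72.1, 81.8 and 73.1 CPM at 2.5 µM and at 67.1, 61.0 and 61.7 CPM at 125 µM. Its 125 µM libraries were below all others (log2 fold change -0.29 ± 0.09 SE, adjusted p = 0.0169). WIPI1, the sister protein of WIPI2 (chr17:66417089-66453654), moved the other way and was at 24.2, 28.3 and 29.2 CPM in the control libraries. WIPI1 was measured at 33.5, 32.6 and 44.4 CPM at 2.5 µM and at 50.0, 55.4 and 49.6 CPM at 125 µM. Every 2.5 µM library was above the controls and every 125 µM library above those, and the level at 125 µM was 1.93-fold higher (log2 fold change 0.95 ± 0.12 SE, adjusted p = 5.62e-05). WIPI1 shares 1784 bases (4.88% of its span) with ARSG, an arylsulfatase gene that also rose (log2 fold change 1.71), and on exon reads alone WIPI1 rose by 0.89 (adjusted p = 4.82e-05). The call of BECN1 was lost without control library 1 or 2 or 125 µM library 2 or 3 (adjusted p from 0.0547 to 0.103) and with limma on RPKM (adjusted p from 0.130 to 0.131) and that of WIPI2 without control library 3 or 125 µM library 2 or 3 (adjusted p from 0.0520 to 0.0882).

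None of the 4 conjugation enzymes, which attach ATG8 proteins to lipid, passed in edgeR's test at 125 µM. At an unadjusted p under 0.05 there were 0, with DESeq2 0 passed and with limma on RPKM 1, ATG7. ATG3, ATG5, ATG7 and ATG12 had log2 fold changes from -0.15 to 0.20 at 125 µM, with adjusted p from 0.232 to 0.784. ATG7 was at 11.95, 12.5 and 11.0 CPM in the control libraries. ATG7 was at 14.8, 11.2 and 10.9 CPM at 2.5 µM and at 13.5, 13.4 and 14.3 CPM at 125 µM. Its 125 µM libraries all lay above the controls, 43.2% of its control reads were in introns, and on exon reads its log2 fold change was 0.51 (adjusted p = 0.0197).

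Within the ATG8 family 1 gene rose, 1 fell and 2 did not pass. MAP1LC3B, the LC3 protein widely used to mark autophagosomes (chr16:87417601-87438385), was at 111, 97.4 and 109 CPM in the control libraries. MAP1LC3B stood at 76.5, 97.9 and 92.1 CPM at 2.5 µM and at 132, 123 and 138 CPM at 125 µM. The 125 µM libraries were above all 6 others, 1.23-fold higher than controls (log2 fold change 0.30 ± 0.10 SE, adjusted p = 0.0276). GABARAPL1 (chr12:10365057-10375727) was at 51.1, 42.1 and 45.9 CPM in the control libraries. GABARAPL1 was measured at 30.7, 47.4 and 29.1 CPM at 2.5 µM and at 32.4, 34.9 and 33.4 CPM at 125 µM. Its 125 µM libraries were below the controls (log2 fold change -0.47 ± 0.15 SE, adjusted p = 0.0244), while at 2.5 µM library 2 lay among the controls and the other two lay below them. GABARAP had a log2 fold change of 0.22 (95% interval -0.23 to 0.66) and GABARAPL2 one of -0.06 (-0.32 to 0.20), so neither interval reaches a 2-fold change. The call of MAP1LC3B was lost without control library 2 or 125 µM library 1 or 3 (adjusted p from 0.0637 to 0.0844) and that of GABARAPL1 without control library 1 or 3 or 125 µM library 1, 2 or 3 (adjusted p from 0.0531 to 0.107) and with limma on RPKM (adjusted p from 0.0939 to 0.0963).

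Of the 2 cargo receptors, which tie ubiquitin-tagged cargo to ATG8 proteins, SQSTM1 rose and OPTN did not pass. SQSTM1, also known as p62 (chr5:179233388-179265078), was at 277, 277 and 235 CPM in the control libraries. SQSTM1 was at 218, 225 and 217 CPM at 2.5 µM and at 384, 352 and 428 CPM at 125 µM. The 125 µM libraries were the highest and the 2.5 µM libraries were all below the controls. The level at 125 µM was 1.47-fold higher than in controls (log2 fold change 0.55 ± 0.09 SE, adjusted p = 0.000344). SQSTM1 overlaps MGAT4B, which rose by 0.60, and C5orf45, which had -1.45; on exon reads SQSTM1 itself rose by 0.58 (adjusted p = 0.000148). OPTN, known for clearing damaged mitochondria, was at 129, 124 and 124 CPM in the control libraries. OPTN stood at 112, 134 and 123 CPM at 2.5 µM and at 105, 132 and 125 CPM at 125 µM, and its groups overlapped (log2 fold change -0.06 ± 0.10 SE, adjusted p = 0.635).

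**Figure D3:**
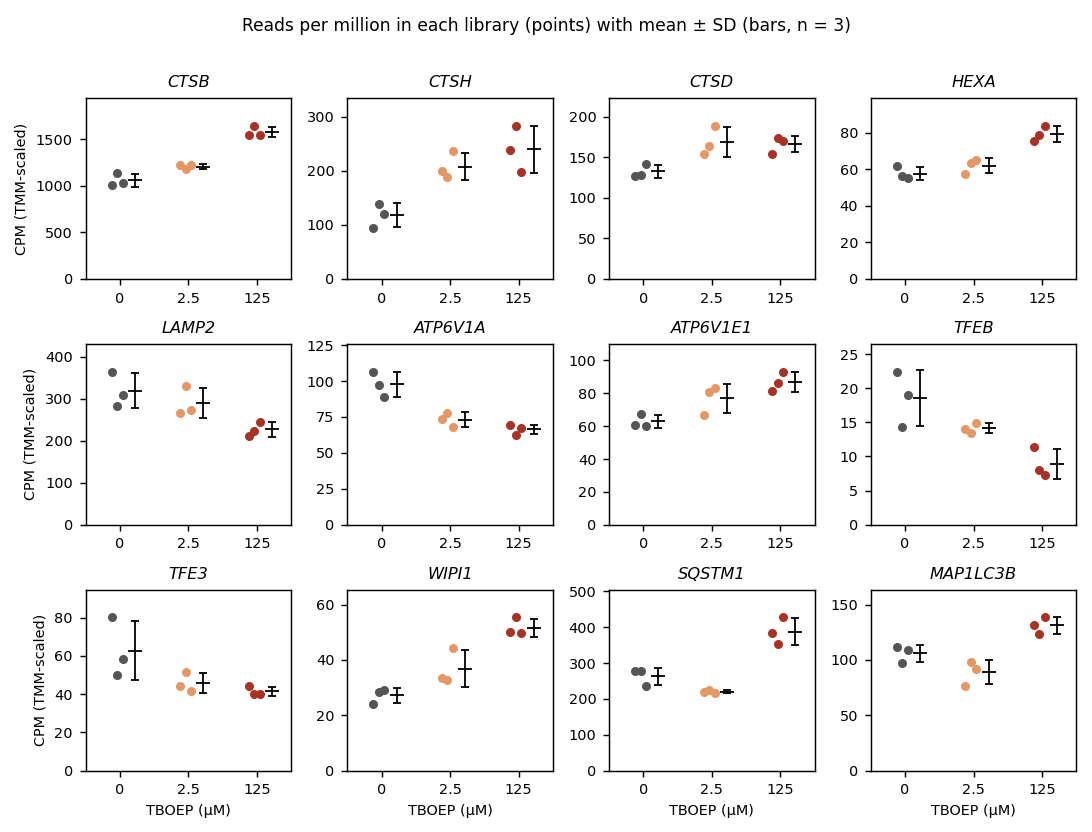
CPM (TMM-scaled, vertical axes from 0) of 12 of the genes in each library at 0, 2.5 and 125 µM TBOEP, with bars for mean ± SD (n = 3). CTSB, HEXA, WIPI1, SQSTM1 and MAP1LC3B have all 125 µM points above the rest, LAMP2 and TFEB have them below the rest, and the 2.5 µM points of CTSH and CTSD already lie above the controls.

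The 25 genes that did not pass at 125 µM had log2 fold changes from -0.51 to 0.24. Their 95% intervals ran from -0.93 to 0.66, all within a 2-fold change, and 20 of the 25 lay within 0.5 on the log2 scale in either direction. Counting only whether libraries overlapped, 14 of the 47 genes had every 125 µM library above every control and 13 had them below, beside 25.6% and 25.2% of all tested genes. Of the 47 genes 15 overlap another tested gene in the genome, and no label or header states whether the counting used strand. Of the genes called at 125 µM, ATG9A shares 46.2% of its span with ABCB6, MAP1LC3B 39.2% with FBXO31 and BECN1 38.6% with PSME3. These neighbours had log2 fold changes of -0.21, -0.33 and -0.12 at 125 µM. On exon reads ATG9A, MAP1LC3B and BECN1 had -0.44, 0.25 and -0.34 and passed. Among genes not called at 125 µM, GLA shares 100% of its span with RPL36A-HNRNPH2 and GABARAPL2 100% with RP11-77K12.8. NAGLU shares 95.9% with RP11-400F19.8 and ATP6V1D 62.9% with MPP5. The part of the neighbours was not tested.

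The comparison of 2.5 µM with control asked whether the low concentration was enough to move these genes. CTSD and CTSH rose and ATP6V1A fell, and 44 of the 47 did not pass, a called share of 6.38% beside 11.0% of all tested genes (6.02% higher and 5.03% lower). CTSH was 1.76-fold higher (log2 fold change 0.82 ± 0.15 SE, adjusted p = 0.00778), from the libraries given above. CTSD had a log2 fold change of 0.34 ± 0.09 SE, adjusted p = 0.0331, close to its value at 125 µM, and ATP6V1A had a log2 fold change of -0.41 ± 0.09 SE, adjusted p = 0.0143. On exon reads alone 2 of the 46 tested there were higher and 4 lower, beside 14.1% called of 11589 genes (856 higher and 775 lower). With limma on log2(RPKM + 0.5) 0 of the 47 were higher and 1 lower. On log2(RPKM + 0.1), 0 of the 47 were higher and 0 lower. With that setting 0 of all 12901 tested genes passed in either direction, so this count is not particular to the 47. The median log2 fold change of the 47 was -0.04, beside -0.00528 for all tested genes. Without overlap between libraries, 6 genes were above the controls (ATP6V1F, CTSB, CTSD, CTSH, GUSB and WIPI1) and 6 below them (ATP6V1A, ATP6V1D, NPC1, BECN1, ATG9A and SQSTM1), beside 14.4% and 13.8% of all tested genes. Several of these came near the threshold, among them NPC1 (log2 fold change -0.32, adjusted p = 0.0517), WIPI1 (0.40, adjusted p = 0.0547), BECN1 (-0.32, adjusted p = 0.0576) and, with overlapping libraries, TFE3 (-0.46, adjusted p = 0.0534). The 44 genes that did not pass had 95% intervals from -1.51 to 0.92, 43 of them within a 2-fold change. These counts moved with single libraries: without 2.5 µM library 1 there were 6 higher and 2 lower, without 2.5 µM library 2 there were 1 and 4, and without 2.5 µM library 3 there were 1 and 0. Without control library 1 the counts were 1 and 0, and without control library 2 they were 1 and 5. Calls among all tested genes moved too, with 860 higher and 613 lower without 2.5 µM library 1. They were 615 and 569 without 2.5 µM library 2 and 323 and 145 without 2.5 µM library 3. Leaving out control library 1 gave 174 and 39, and leaving out control library 2 gave 1005 and 1045. The call of CTSD was lost without control library 1 or 2 or 2.5 µM library 2 or 3 (adjusted p from 0.0525 to 0.140) and with limma on RPKM or with only these groups fitted (adjusted p from 0.0620 to 0.0687) and that of ATP6V1A without control library 1 or 2.5 µM library 3 (adjusted p from 0.0566 to 0.0888) and with limma on log2(RPKM + 0.1) (adjusted p = 0.0510), whereas that of CTSH passed without each library in turn and was lost with limma on RPKM (adjusted p from 0.0659 to 0.0683).

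Between the concentrations, 7 genes were higher and 2 lower at 125 µM than at 2.5 µM, a called share of 19.1% beside 14.9% of all tested genes (7.48% higher and 7.44% lower). Libraries did not overlap for 10 genes above and 6 below, beside 16.9% and 15.9% of all tested genes. On exon reads alone 6 of the 46 tested there were higher and 2 lower, beside 16.3% called of 11589 genes (952 higher and 933 lower). On RPKM values with limma all tested genes together gave 666 higher and 302 lower, beside 965 and 960 on counts. This comparison shares the 125 µM libraries with the comparison of 125 µM with control and the 2.5 µM libraries with the other, so its calls are not separate evidence. SQSTM1 was 1.76-fold higher at 125 µM than at 2.5 µM (log2 fold change 0.81 ± 0.09 SE, adjusted p = 8.36e-05). MAP1LC3B was 1.48-fold higher (log2 fold change 0.56 ± 0.10 SE, adjusted p = 0.00223). For both, the 2.5 µM mean lay under the control mean: 219.9 ± 4.51 CPM against 263 ± 24.2 CPM for SQSTM1 and 88.8 ± 11.1 CPM against 106 ± 7.52 CPM for MAP1LC3B, a difference that did not pass for SQSTM1 (adjusted p = 0.0845) or MAP1LC3B (adjusted p = 0.111). WIPI1 (0.55, adjusted p = 0.00747), CTSB (0.39, adjusted p = 0.00602), HEXA (0.36, adjusted p = 0.0151) and TPP1 (0.27, adjusted p = 0.0323) also rose, with log2 fold changes given here. LAMP2 (-0.36, adjusted p = 0.0411) and TFEB (-0.61, adjusted p = 0.0469) fell. ATP6V1D, a subunit of the rotating shaft of the pump, was at 29.0, 30.5 and 30.0 CPM in the control libraries. ATP6V1D was measured at 23.2, 25.7 and 25.0 CPM at 2.5 µM and at 31.2, 31.6 and 29.7 CPM at 125 µM. Its 2.5 µM libraries stood below all 6 others, and the step from 2.5 µM to 125 µM was 0.33 (adjusted p = 0.0382). CTSH and CTSD did not pass here, with log2 differences of 0.22 (95% interval -0.08 to 0.53) and -0.01 (-0.21 to 0.19). The calls of CTSB, MAP1LC3B and SQSTM1 passed in all 20 other ways of processing. Without 125 µM library 2 there were 3 genes higher and 0 lower. Without 125 µM library 3 or without 2.5 µM library 2 there were 4 and 0, and without 2.5 µM library 1 there were 4 and 1. The lower count was 0 without control library 3 and 1 without 2.5 µM library 3 or 125 µM library 1. All tested genes gave 445 higher and 354 lower without 125 µM library 2 and 662 and 590 without 125 µM library 3. They gave 525 and 490 without 2.5 µM library 2 and 646 and 649 without 2.5 µM library 1. Single calls were lost as follows: ATP6V1D without control library 3 or 2.5 µM library 1, 2 or 3 or 125 µM library 1, 2 or 3 (adjusted p from 0.0532 to 0.155) and with DESeq2, with no filter, on exon reads or with only these groups fitted (adjusted p from 0.0511 to 0.160), LAMP2 without control library 3 or 2.5 µM library 2 or 125 µM library 1, 2 or 3 (adjusted p from 0.0549 to 0.195) and with limma on RPKM (adjusted p from 0.0944 to 0.0996), TPP1 without 2.5 µM library 1 or 2 or 125 µM library 1, 2 or 3 (adjusted p from 0.0772 to 0.118) and with DESeq2 or with no filter (adjusted p from 0.0522 to 0.0640), HEXA without 2.5 µM library 1 or 125 µM library 2 or 3 (adjusted p from 0.0541 to 0.0650), TFEB without control library 3 or 2.5 µM library 1, 2 or 3 or 125 µM library 2 or 3 (adjusted p from 0.0655 to 0.222) and with DESeq2, on exon reads or with limma on RPKM (adjusted p from 0.0584 to 0.171) and WIPI1 without 2.5 µM library 2 or 125 µM library 2 (adjusted p from 0.0515 to 0.0634) and with limma on RPKM (adjusted p from 0.0685 to 0.0733).

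To place the 47 genes among their pathways, a wider list of 142 genes of the same systems was examined, of which 140 were found under their names and 120 passed the filter. At 125 µM 26 of these rose and 19 fell, 37.5% called beside 40.2% of all tested genes, with a median log2 fold change of 0.02. Of the other proton pump subunits 0 of 7 passed in edgeR's test (0 at an unadjusted p under 0.05, 0 with DESeq2 and 0 with limma on RPKM). Among the other lysosomal hydrolases 10 of 33 rose and 7 fell (51.5% called). CTSK, a collagen-cutting cathepsin, was at 6.61, 5.74 and 6.93 CPM in the control libraries. CTSK was at 3.83, 5.02 and 3.23 CPM at 2.5 µM and at 2.55, 1.49 and 0.734 CPM at 125 µM, and it fell with no overlap between the 125 µM libraries and any other (log2 fold change -1.85 ± 0.30 SE, adjusted p = 0.000258). Its level in 125 µM library 3 was under the 1.12 CPM that 3 reads stand for there. ARSB, an arylsulfatase, had a log2 fold change of -0.57 ± 0.08 SE, adjusted p = 0.000111, and HYAL1, a hyaluronidase, had a log2 fold change of -0.49 ± 0.10 SE, adjusted p = 0.00103. Among other membrane and sorting proteins 6 of 23 rose and 4 fell (43.5% called). CD63, a tetraspanin of the lysosomal membrane, was at 134, 119 and 126 CPM in the control libraries. CD63 stood at 131, 175 and 158 CPM at 2.5 µM and at 216, 208 and 207 CPM at 125 µM, with the 125 µM libraries above all others (log2 fold change 0.73 ± 0.10 SE, adjusted p = 8.22e-05). SCARB2, which carries glucocerebrosidase to the lysosome, had a log2 fold change of 0.42 ± 0.09 SE, adjusted p = 0.00178. TPCN1, an ion channel, had a log2 fold change of 0.83 ± 0.16 SE, adjusted p = 0.000874, and PQLC2, an amino acid exporter, had a log2 fold change of 0.65 ± 0.16 SE, adjusted p = 0.00558.

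Among the genes of mTORC1 at the lysosome, the nutrient-sensing kinase complex that restrains TFEB, and the relatives of TFEB, 5 of 18 rose and 1 fell. That is 33.3% called, beside 40.2% of all tested genes. RRAGD, a GTPase that recruits mTORC1 and is known as a TFEB target, was at 0.734, 0.989 and 1.28 CPM in the control libraries. RRAGD was measured at 1.63, 1.39 and 1.21 CPM at 2.5 µM and at 1.94, 2.99 and 1.84 CPM at 125 µM, a level near that of 3 reads in the shallower libraries (log2 fold change 1.35 ± 0.38 SE, adjusted p = 0.00993). LAMTOR1 (log2 fold change 0.51 ± 0.16 SE, adjusted p = 0.0177) and LAMTOR2 (log2 fold change 0.48 ± 0.14 SE, adjusted p = 0.0149), which anchor those GTPases, rose too. TSC1, an inhibitor of mTORC1, fell (log2 fold change -0.50 ± 0.10 SE, adjusted p = 0.000859). Among the other autophagy genes 5 of 39 rose and 7 fell (30.8% called). AMBRA1, a partner of BECN1, rose (log2 fold change 0.59 ± 0.11 SE, adjusted p = 0.000942), while ATG2B, a lipid transfer protein, and BNIP3L, a mitochondrial receptor, fell, with log2 fold changes of -0.48 (adjusted p = 0.00196) and -0.39 (adjusted p = 0.00408). TMEM41B passed as lower (log2 fold change -0.51 ± 0.09 SE, adjusted p = 0.000653), but 50.1% of its control reads were in introns and its sign was reversed on exon reads, with a log2 fold change of 0.064. At 2.5 µM 4 of the 120 tested genes of the wider list passed (3.33%), beside 11.0% of all tested genes. Among them were LAMTOR5 (log2 fold change 0.61, adjusted p = 0.0467) and BNIP3 (0.47, adjusted p = 0.0185), which rose, and ATG2B (-0.42, adjusted p = 0.0203), which fell. At 125 µM the call of RRAGD was lost without control library 1 or 125 µM library 2 (adjusted p from 0.0869 to 0.107) and with DESeq2 or with limma on RPKM (adjusted p from 0.0541 to 0.0761). That of LAMTOR1 was lost without 125 µM library 2 (adjusted p = 0.0847). That of LAMTOR2 was lost without 125 µM library 1 (adjusted p = 0.0630) and with DESeq2 (adjusted p = 0.0543). The log2 fold change of RRAGD was 0.36 at its lowest among the alternatives. The count of 45 was 26 without control library 1 and 25 without 125 µM library 2. Of all tested genes 1827 rose and 1748 fell without control library 1, and 1826 and 1731 without 125 µM library 2. At 2.5 µM the count of 4 was 9 without control library 2 or 2.5 µM library 1, 0 without control library 3 or 2.5 µM library 3, 1 without control library 1 and 2 without any 1 of the 125 µM libraries. Of all tested genes 411 rose and 296 fell at 2.5 µM without control library 3, and 323 and 145 without 2.5 µM library 3. The single calls there were lost for LAMTOR5 without control library 1, 2 or 3 or 2.5 µM library 2 or 3 or 125 µM library 1, 2 or 3 (adjusted p from 0.0517 to 0.210) and with limma on RPKM or with only these groups fitted (adjusted p from 0.0846 to 0.138), BNIP3 without control library 3 or 2.5 µM library 3 (adjusted p from 0.0504 to 0.0730) and with limma on RPKM (adjusted p from 0.0601 to 0.0626) and ATG2B without control library 1 or 3 or 2.5 µM library 3 (adjusted p from 0.0521 to 0.0887) and with limma on RPKM or with only these groups fitted (adjusted p from 0.0518 to 0.0600).

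**Figure D4:**
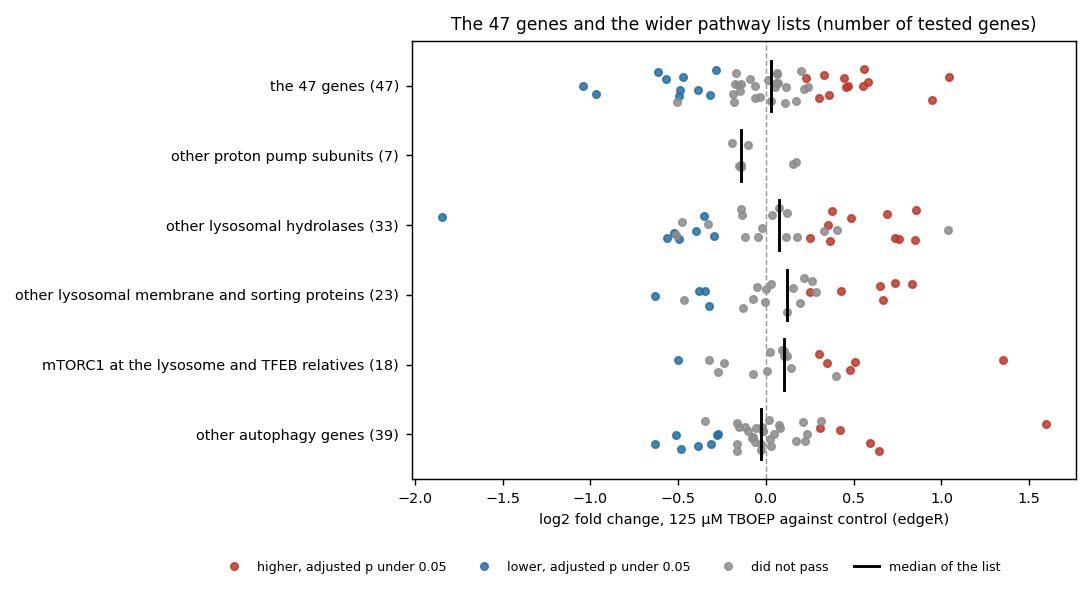
Log2 fold change at 125 µM against control (horizontal axis) of the 47 genes and of the tested genes of the 5 wider lists; each point is 1 gene, coloured by its call, and the black bar is the median of the list. The medians lie between -0.14 and 0.12, and in the 47 genes and in 4 of the 5 lists called genes lie on both sides of 0, while the other pump subunits hold no called gene.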

How the data were processed

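The 9 libraries were grouped by the concentration in their labels. Per the labels' protocols, stranded poly(A) libraries were made from separately seeded cells; per the submitters' processing notes the genome was hg19. The version of the counting software, and whether it used strand, is not stated here by any label or header. The authors deposited, per gene and library, read counts (total, unique, exon and intron gene reads) and RPKM values, per the file headers.

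Total gene reads, introns included, were tested with edgeR 4.0.16 (R 4.3.3): filterByExpr, TMM scaling, 3 groups without covariates, quasi-likelihood F-test, 2-sided, Benjamini-Hochberg over 12901 genes, threshold 0.05. SE is the log2 fold change divided by the square root of F. Levels between genes use RPKM, with no test. Alternatives used DESeq2 1.42.0 and limma 3.58.1 on log2(RPKM + 0.5) or log2(RPKM + 0.1), whose fold changes understate those of low genes. The scripts were tested on simulated data.

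All 47 genes are accounted for by role; from each wider list up to 4 genes with the smallest adjusted p at 125 µM, and up to 2 at 2.5 µM, are named, except 1 that is not reported here. Genes and lists were chosen with earlier results of these data known. P-values measure the spread between seedings of 1 line; depth limits low genes such as CTSZ.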

Additional observations from a re-analysis of the deposited data

How the results depend on the processing

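Each result was recomputed under 20 alternatives, and counts below are of genes higher or lower unless stated. The 12 higher and 10 lower genes at 125 µM against control ranged from 7 to 12 and from 6 to 11 when each library was left out in turn, and the 45 of the wider list from 25 to 48. At 2.5 µM against control the same ranges were 1 to 6, 0 to 5 and 0 to 9, and for 125 µM against 2.5 µM they were 3 to 7, 0 to 2 and 8 to 29. The calls of all tested genes moved with single libraries too, as given above. Of single calls, 12 of 22, 0 of 3 and 3 of 9 passed under every alternative. At 2.5 µM against control the 2 higher genes became 0 with limma on log2(RPKM + 0.5) or log2(RPKM + 0.1) and 1 with only the 2 groups compared. The 1 lower gene became 3 with DESeq2, 4 without a filter, 2 with a stricter filter, 4 on exon reads and 0 on log2(RPKM + 0.1). The 4 genes of the wider list became 0 with limma at both pseudocounts and 1 with only the 2 groups compared. On log2(RPKM + 0.1) 0 of all 12901 tested genes passed at 2.5 µM, so no call could remain there. For 125 µM against 2.5 µM the 2 lower genes became 1 with DESeq2 and 0 with limma at both pseudocounts, and the 25 of the wider list became 16 with DESeq2 and 15 on log2(RPKM + 0.1). TMEM41B at 125 µM was reversed on exon reads (0.064), log2(RPKM + 0.5) (0.20) and log2(RPKM + 0.1) (0.21). Values on both RPKM scales carry a shift. The median of all genes at 125 µM is 0.085 on log2(RPKM + 0.5) and 0.107 on log2(RPKM + 0.1). The cause of these changes was not tested.

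Deviations of same-numbered libraries correlated at -0.256 to 0.198 (median 0.0867), with 4 of 9 pairs over 0.1. The median for differently numbered libraries was -0.0181. Library 3 had the fewest gene reads in each group (4023991 in the controls, 2480964 at 2.5 µM and 2670690 at 125 µM). It also had the lowest intron share in each group (6.14%, 4.93% and 4.91%). Whether the replicate numbers mark a batch was not tested. With the replicate number as a block, 12 genes were higher and 10 lower at 125 µM; at 2.5 µM the lower count became 2 and the wider list 2, and for 125 µM against 2.5 µM the lower count became 1.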
